A study of Vitis vinifera with 27 samples.

Results

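The data described here are the change of the leaf removal effect in grape berries between E-L 36 and E-L 38, the mid-ripening and the ripe stage of the modified Eichhorn-Lorenz scale. For each gene it is the difference between leaf removal and control berries at E-L 38, minus the same difference at E-L 36, on the log2(FPKM + 1) scale. FPKM is the number of fragments per kilobase of transcript, scaled to the mapped reads of the library. The value is called the interaction below. It uses 12 of the 27 RNA-seq libraries, 3 in each of 4 groups, and 19761 of the 28940 genes in the table, those that reached an FPKM of 1 in 3 or more libraries.

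All vines were own-rooted Cabernet Sauvignon of 1 vineyard and 1 season. At véraison, the onset of colouring, the 6 basal leaves of each fruiting shoot were taken off (LR-V) or tied aside and left on the shoot (LM-V), and the control vines (C) kept theirs in place. Each replicate, A to C, pooled berries of several vines, and RNA came from whole berries without their seeds. In such RNA, fewer cells of a type and less RNA per cell cannot be told apart. The C libraries are also listed in a second data series, and the sources used here do not say whether they were prepared together with the treated ones. A batch and the treatment therefore cannot be told apart at either stage, and the interaction removes only a shift of the C libraries that is the same at both stages.

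Between these stages a red berry gains sugar and anthocyanin, loses malic acid and softens. Removing basal leaves lets more light and heat reach the cluster and also takes away a nearby source of sugar. Moving leaves aside also lets in light and heat and keeps the leaves on the shoot. In the paper's fruit-zone readings it let in less light than leaf removal, so the treatments differ in exposure too. An interaction arises when a treatment acts at 1 stage alone, when it acts at both with unequal size, or when its direction turns. These cases were separated by the calls at each stage.

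The 12 libraries had FPKM sums of 621213 to 690035 and 16589 to 17698 genes at FPKM 1 or more. Libraries of a group correlated at 0.953 to 0.982. Berry skin was present in every library: the anthocyanin regulator VviMYBA1 had 8.01 to 10.6 FPKM in C and 16 to 19.7 in LR-V at E-L 36. At E-L 38 its range was 3.31 to 7.23 in C and 5.68 to 8.31 in LR-V. Chalcone synthase, also taken as a skin marker, did not go the same way. Its gene VIT_205s0136g00260 had 631 to 910 FPKM in C and 481 to 710 in LR-V at E-L 36. At E-L 38 that gene had 542 to 599 in C and 279 to 354 in LR-V. Of 4 tested chalcone synthase genes, limma called 2 below C and 0 above at E-L 38. Some seed transcripts set 3 LR-V libraries apart, although seeds had been taken out. A vicilin-like storage protein, VIT_206s0004g03260, had 26.8 FPKM in LR-V A at E-L 36, 51.1 in LR-V A at E-L 38 and 34.1 in LR-V C at E-L 38, against at most 5.26 in the other 9 libraries. Summed over the 12 genes of the seed storage list, the values were 45.3 to 63.5 in C and 46.9 to 196 in LR-V at E-L 36. At E-L 38 they were 35.2 to 43.2 in C and 55.8 to 285 in LR-V. Members of the list did not all follow. In the 3 libraries the 7S globulin VIT_214s0128g00200 had 126, 190 and 115 FPKM, against at most 21.3 in the other 9. The 7S globulin VIT_207s0005g04460 had 29.7, 32.7 and 33.5 there, against up to 42.3 elsewhere, and VIT_207s0005g04680 6.67, 5.98 and 3.27, against up to 8.48. The 2S albumin VIT_219s0177g00090 had 6.40, 3.97 and 1.67, against 3.09 in C C at E-L 38. The 12S globulin VIT_212s0059g02390 was listed at 0 in all 12 libraries. At E-L 37, which serves below only as a time in between, the sums were 33.1 to 61.6 in C and 36.2 to 529 in LR-V. Summed over 8 late embryogenesis abundant genes, all LR-V libraries were above C at E-L 36, 284 to 638 against 92.2 to 124. At E-L 38 these sums overlapped, 58.4 to 534 in LR-V and 20.9 to 66.9 in C. The 3 libraries were set apart by seed storage transcripts, not by this second list. Results that rest on these 3 libraries are given below with and without them. Leaving them out keeps 1 LR-V library at E-L 38, which is then assumed to vary like the other groups.

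Of the 19761 genes, limma called 1650 for the interaction at an adjusted p under 0.05, 798 above 0 (4.04%) and 852 below 0 (4.31%). The median over all tested genes was 0 and 4411 genes had an unadjusted p under 0.05. LR-V berries had 806 genes above C at the first stage (4.08%) and 288 below it (1.46%). Under median-of-ratios scaling the 288 became 444. At the ripe stage they had 2001 above (10.1%) and 1513 below (7.66%). Without the 3 seed-rich LR-V libraries, limma called 602 genes for the interaction, 640 at E-L 36 and 600 at E-L 38. The comparisons at the 2 stages share no library. Only 371 genes were called at both stages, of which 181 were above C both times, 34 were below both times and 156 (42%) had opposite signs. The name of a reversal thus fits 156 of the 1650 interaction genes by their calls, and 65 genes had opposite calls without the 3 libraries.

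Most other interaction genes were called at 1 stage, and a missing call does not show that a gene was level there. Of the 852 genes below 0, 446 were called at E-L 38 alone, where they were lower in LR-V, and 193 at E-L 36 alone, where they were higher. Opposite calls were made for 118, both stages were higher for 2, and neither stage passed for 93. Of the 798 genes above 0, 545 were higher at E-L 38 alone and 100 lower at E-L 36 alone. Opposite calls were made for 38, both stages were higher for 17, and neither stage passed for 98. By the sign of the estimates alone, without regard to the calls, 721 of the 852 went from above to below C and 624 of the 798 from below to above. Over all tested genes the differences at the 2 stages had a Pearson correlation of 0.26, across genes that are not independent replicates.

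**Figure D1:**
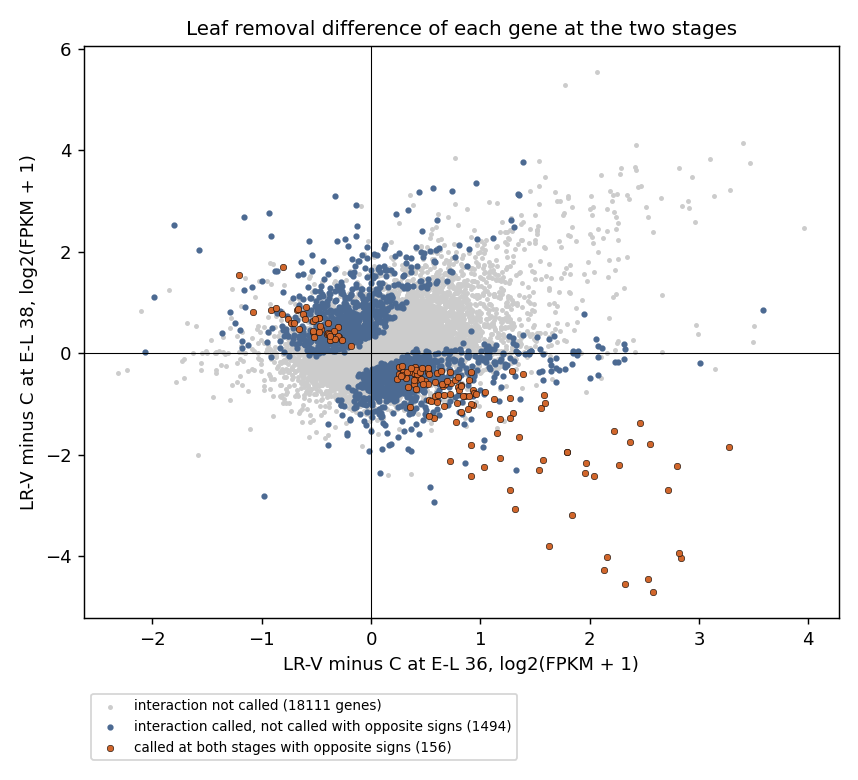
Each point is 1 of 19761 tested genes, with the LR-V minus C difference at E-L 36 on the x axis and at E-L 38 on the y axis, both in log2(FPKM + 1). Grey points are 18111 genes without an interaction call, blue points 1494 genes with one, and orange points the 156 genes called at both stages with opposite signs, which lie in the upper left and lower right.

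The 118 genes that were above C at E-L 36 and below it at E-L 38 made up 0.597% of the tested genes, and the 38 with the opposite order 0.192%. Both sets were chosen by these calls, so their values at E-L 36 and 38 are a description. In the 118, the median difference was 0.80 at E-L 36 (0.24 to 3.27) and -0.82 at E-L 38 (-4.71 to -0.26). At E-L 37, whose libraries did not choose them, it was -0.10 beside -0.09 over all tested genes. At that stage 6 of the 118 were called above C and 6 below, where 1.79% of all genes were above and 3.23% below. From E-L 36 to 38 the 118 genes had a median change of 0.83 in C and -1.07 in LR-V, beside 0.14 in each over all tested genes, from the same libraries that chose them. In the 38 genes of the opposite order the median difference was -0.52, 0.01 and 0.56 at the 3 stages in turn. At E-L 37, limma called 0 of the 38, and 11 had an unadjusted p under 0.05. Their median change from E-L 36 to 38 was -0.56 in C and 0.46 in LR-V.

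The steepest reversal was in a run of neighbouring identifiers, VIT_212s0057g00050 to VIT_212s0057g00190, some of whose members have a cacao benzoquinol hydroxylase as the closest named protein. Of its 14 genes 13 were tested, all 13 were called below 0, and 12 were called with opposite signs. Its interaction differences ran from -7.28 to -3.62, with a median of -5.43 beside 0 over all tested genes. Summed over the run, the C libraries A, B and C had 228.7, 159 and 211.8 FPKM at E-L 36 and the LR-V libraries 935.4, 896.4 and 937.3. At E-L 38 the sums were 553.4, 540.1 and 273.3 in C and 24.0, 32.7 and 16.8 in LR-V. The groups did not overlap at either stage, and all 3 LR-V libraries lay together each time. At E-L 37 the sums were 187 to 270 in C and 190 to 297 in LR-V, which overlap. The member with the lowest interaction, VIT_212s0057g00140, had 10.1, 15.2 and 14.0 FPKM in C and 89.1, 73.4 and 83.7 in LR-V at E-L 36. At E-L 38 it had 61.3, 53.4 and 21.4 in C, and 1.44, 0.74 and 0 in LR-V. Its interaction was -7.28 ± 0.72 (SE, adjusted p = 1.47e-06). Genes of such a run can be close copies, and the counting may have moved reads between them, so the sum is safer than any 1 member. With the 3 seed-rich LR-V libraries left out, 12 of the 13 kept the call.

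Some genes of large change carry no description of function. VIT_208s0007g04180 had 17.7, 14.1 and 14.6 FPKM in C and 106, 97.0 and 81.4 in LR-V at E-L 36. At E-L 38 it had 78.7, 80.2 and 45.1 in C and 2.22, 2.49 and 1.60 in LR-V. The groups were far apart at both stages, and the interaction of -6.98 ± 0.33 had the smallest adjusted p of all genes, 9.66e-12. VIT_214s0006g02950 bears the KEGG term of the large subunit of carbamoyl-phosphate synthase, the entry enzyme of arginine and pyrimidine synthesis. It had 7.18, 3.56 and 7.70 FPKM in C and 54.1, 41.5 and 45.8 in LR-V at E-L 36, then 29.6, 35.9 and 15.8 in C and 7.22, 3.15 and 4.53 in LR-V at E-L 38. A second gene with that term, VIT_217s0000g03720, chosen after its values were seen, had an interaction of -1.63 ± 0.16 (adjusted p = 5.2e-07), with means of 72.3 FPKM in C and 177 in LR-V at E-L 36, then 61.3 in C and 47.8 in LR-V at E-L 38.

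The next genes have Arabidopsis relatives that are known from low oxygen or from fermentation. They form no list, and they were chosen after their values were seen, apart from the pyruvate decarboxylase, the alcohol dehydrogenase and the sucrose synthase. Cysteamine dioxygenases are the class of the plant cysteine oxidases, which in Arabidopsis use oxygen to mark certain ethylene response factors for decay. Of 6 tested grape members, 2 were called for the interaction, both with opposite signs. VIT_214s0108g00090 had 6.79, 5.58 and 7 FPKM in C and 34.9, 28.5 and 22.3 in LR-V at E-L 36, then 38.5, 39.2 and 21.4 in C and 7.97, 4.89 and 6.61 in LR-V at E-L 38. Its interaction was -4.13 ± 0.33 (adjusted p = 3.42e-08). VIT_208s0056g01300 was at 0.86, 0.44 and 0.43 FPKM in C and 3.73, 2.72 and 2.08 in LR-V at E-L 36, then at 9.73, 12.7 and 6.89 in C and 0.71, 0.55 and 0.58 in LR-V at E-L 38. The other 4 members did not pass, with interactions between -0.48 and 0.12.

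The enzymes of fermentation and of sucrose use given here moved by less. Their list, alcohol dehydrogenase and pyruvate decarboxylase, had 3 calls above 0 and 3 below among 47 tested genes, with a median of 0.06. The calls above 0 were VIT_219s0014g00320 (0.37), VIT_207s0005g04610 (0.66) and VIT_200s0371g00100 (2.4). Not all members are enzymes of fermentation. VIT_207s0005g04610 bears the term of an S-(hydroxymethyl)glutathione dehydrogenase. VIT_200s0371g00100 and VIT_200s0615g00030, called below 0 (-1.45), are mannitol dehydrogenase-like and are also counted below as cinnamyl alcohol dehydrogenases. Pyruvate decarboxylase makes acetaldehyde from pyruvate, and its gene VIT_208s0217g00100 had 90.8, 88.5 and 86.0 FPKM in C and 131.6, 130.2 and 122.1 in LR-V at E-L 36. At E-L 38 it had 68.8, 80.8 and 68.4 in C and 59.2, 53.5 and 50.4 in LR-V, so neither stage overlapped and the interaction was -0.94 ± 0.12 (adjusted p = 3.49e-05). The other 2 tested pyruvate decarboxylase genes did not pass. Alcohol dehydrogenase 1 (VIT_204s0044g01110), the next enzyme of that route, overlapped between groups at E-L 36, with 585.5 to 708.0 FPKM in C and 499.5 to 644.2 in LR-V. At E-L 38 it had 483, 537 and 428 in C and 216, 293 and 142 in LR-V, and its interaction was -1.10 (adjusted p = 0.00676). That call was lost when the 3 seed-rich libraries were left out and when the 4 groups were fitted on their own.

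A truncated haemoglobin, VIT_204s0008g04210, of a class that binds oxygen, had 42.5, 32.2 and 31.7 FPKM in C and 44.5, 37.9 and 43.7 in LR-V at E-L 36, which overlap. At E-L 38 the values were 45.6, 44.2 and 41.4 in C and 13.2, 13.8 and 12.8 in LR-V, and the interaction was -1.90 ± 0.19 (adjusted p = 7.2e-07). It thus fell at the ripe stage without a call at E-L 36. Glutamate decarboxylase 1 (VIT_204s0079g00600), which makes gamma-aminobutyrate, passed in opposite directions, with an interaction of -0.74 ± 0.09 (adjusted p = 1.98e-05). Its means were 227 FPKM in C and 268 in LR-V at E-L 36, then 212 in C and 150 in LR-V at E-L 38. Sucrose synthase VIT_207s0005g00750, which splits sucrose without using ATP, passed likewise, with an interaction of -0.66 (adjusted p = 0.0012). Means of this gene were 218 and 267 FPKM at E-L 36 and 432 and 336 at E-L 38, in C and LR-V. It was the only call among 3 tested sucrose synthase genes. Their interactions ran from -0.66 to 0.99, and all 3 had an unadjusted p under 0.05.

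In the regulator lists, opposite calls were made for 1 of 24 abscisic acid genes, 1 of 43 jasmonate genes, 3 of 53 WRKY and 1 of 78 MYB genes. Over all 19761 tested genes they were made for 156, 0.597% in the first order and 0.192% in the other. 9-cis-epoxycarotenoid dioxygenase (NCED) cuts a carotenoid to give the precursor of abscisic acid. Its gene VIT_219s0093g00550 had 15.8, 12.3 and 12.3 FPKM in C and 40.1, 55.3 and 34.0 in LR-V at E-L 36, then 7.38, 6.70 and 7.61 in C and 2.80, 4.13 and 2.75 in LR-V at E-L 38. The level fell with ripening in both kinds of berries, and LR-V moved from above to below C, with an interaction of -2.57 ± 0.33 (adjusted p = 2.81e-05). Among the 24 tested genes of the abscisic acid list it was the only call.

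TIFY 10A-like VIT_209s0002g00890 encodes a jasmonate ZIM domain protein, a repressor of jasmonate responses that jasmonate itself induces. It had 36.0, 32.4 and 30.9 FPKM in C and 109, 63.6 and 56.5 in LR-V at E-L 36, then 73.8, 68.4 and 56.2 in C and 35.4, 36.8 and 31.4 in LR-V at E-L 38. Its interaction was -2.03 (adjusted p = 0.00116). The jasmonate list had 4 calls below 0 and 0 above among 43 tested genes. The 4 are 9.3%, beside 4.31% of all genes. In the list 11 below and 4 above had an unadjusted p under 0.05, and the median was 0.06. A second jasmonate ZIM gene, VIT_200s0179g00090, was 0.74 below C at E-L 38 and 0.01 above it at E-L 36, where it was not called. Without the 3 seed-rich libraries its interaction was not called (adjusted p = 0.0991), and the jasmonate list had 2 calls below 0. Allene oxide cyclase 4 (VIT_201s0011g03090), of jasmonate synthesis, had 17.0, 2.24 and 2.64 FPKM in LR-V at E-L 36, and the other 3 groups of the interaction had at most 0.91. Its interaction was -2.48 and -1.69 without LR-V A at E-L 36. The call was lost without the 3 seed-rich libraries, without C replicate C at E-L 36, and when the 4 groups were fitted alone.

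WRKY factors act in defence and stress signalling. Of 53 tested, 3 were called above 0 and 3 below, and the 3 below had opposite calls at the 2 stages. The share called was 5.66% each way, near the 4.04% and 4.31% of all genes. WRKY 22-like VIT_202s0025g00420 had 21.6, 12.9 and 13.3 FPKM in C and 29.3, 32.1 and 29.9 in LR-V at E-L 36, then 6.88, 5.80 and 4.66 in C and 3.14, 1.67 and 2.28 in LR-V at E-L 38. At E-L 37 it was still 1.34 above C, and its interaction was -1.95 (adjusted p = 0.0005). WRKY 23-like VIT_207s0005g01710 and WRKY 33 VIT_205s0077g00730 had interactions of -0.999 (adjusted p = 4.08e-06) and -0.78 (adjusted p = 0.00044). A MYB factor of unstated role, VIT_207s0005g01950, had 3.12, 2.17 and 4.92 FPKM in C and 10.6, 17.6 and 8.72 in LR-V at E-L 36, then 9.81, 7.96 and 8.97 in C and 3.76, 3.64 and 6.93 in LR-V at E-L 38. It was 1 of 5 MYB genes below 0 and 1 above among 78 tested.

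Chaperones refold proteins and rise with heat in most plants. HSP70 gene VIT_208s0007g00130, chosen after its values were seen, had 26.4, 33.5 and 31.2 FPKM in C and 71.2, 77.2 and 49.9 in LR-V at E-L 36, then 50.9, 46.1 and 37.8 in C and 16.7, 20.03 and 20.4 in LR-V at E-L 38. Its interaction was -2.27 ± 0.20 (adjusted p = 2.48e-07). The HSP90-type genes VIT_200s0194g00030 and VIT_202s0025g00280 had interactions of -0.94 (adjusted p = 3.57e-05) and -2.74 (adjusted p = 0.00371), and the first had opposite calls. Of 70 tested genes of the heat shock protein list, 4 were called below 0 and 2 above, with a median of 0.00466. These shares, 5.71% and 2.86%, were near the 4.31% and 4.04% of all genes.

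Signalling and chromatin genes with the same order included a receptor-like kinase, VIT_207s0129g00930, with 24.98, 22.2 and 21.0 FPKM in C and 45.2, 42.3 and 43.8 in LR-V at E-L 36. It had 53.8, 53.5 and 39.3 in C and 9.12, 8.68 and 7.05 in LR-V at E-L 38, and an interaction of -3.34 ± 0.21 (adjusted p = 4.29e-10). This kinase and the next 3 genes were chosen after their values were seen. A TDIF-like CLE peptide gene, VIT_204s0023g03600, had means of 15.8 and 26.8 FPKM at E-L 36 and 16.3 and 2.97 at E-L 38, in C and LR-V, and an interaction of -2.84 (adjusted p = 3.51e-07). In Arabidopsis, TDIF peptides keep vascular stem cells from becoming xylem. An ethylene receptor, VIT_205s0049g00090, had an interaction of -1.31 (adjusted p = 0.00275), and chorismate mutase VIT_204s0008g06570, which leads chorismate towards phenylalanine, -1.70 (adjusted p = 0.00116). Histone H1 VIT_204s0023g03130, the linker histone, had 67.2 to 68.6 FPKM in C and 76.8 to 93.3 in LR-V at E-L 36. In ripe berries it had 219 to 227 in C and 97.8 to 111 in LR-V. Its rise with ripening was smaller in LR-V, and its interaction was -1.42 ± 0.15 (adjusted p = 1.52e-06).

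**Figure D2:**
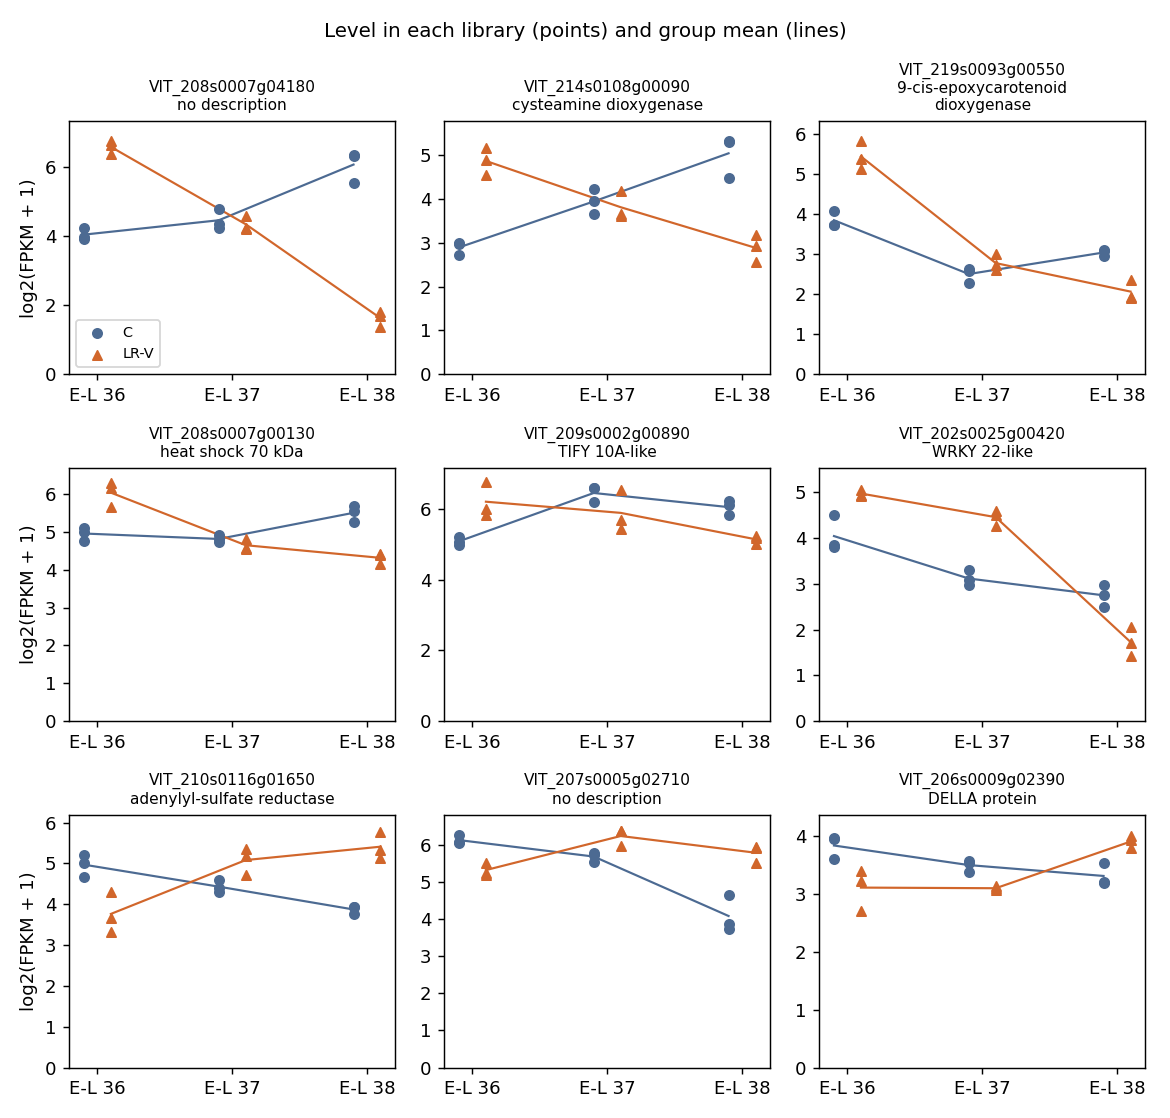
Each panel gives 1 gene, with the stage on the x axis and log2(FPKM + 1) on the y axis. Points are single libraries (blue circles C, orange triangles LR-V, 3 a group) and lines join group means. In the upper 6 panels LR-V starts above C and ends below it, in the lower 3 it starts below and ends above, and at E-L 37 most panels show the groups close together.

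The opposite order was rarer and had smaller differences. Its largest member by the interaction was adenylyl-sulfate reductase, the enzyme that commits sulfate to reduction and so to cysteine and glutathione. VIT_210s0116g01650 had 24.7, 36.3 and 31.3 FPKM in C and 18.7, 11.8 and 9.02 in LR-V at E-L 36, then 14.3, 12.6 and 14.2 in C and 39.4, 33.9 and 53.7 in LR-V at E-L 38. The groups were apart at both stages, and the interaction was 2.74 ± 0.34 (adjusted p = 2.4e-05). A second reductase gene, VIT_212s0059g00760, overlapped at E-L 36 and had 1.94, 1.55 and 2.45 FPKM in C and 6.47, 6.51 and 8.69 in LR-V at E-L 38, with an interaction of 1.89 (adjusted p = 0.000644). Sulfite reductase, the next step, VIT_206s0004g02330, had 38.1, 38.4 and 39.4 FPKM in C and 34.1, 30.6 and 28.7 in LR-V at E-L 36, then 34.1, 36.2 and 35.0 in C and 47.0, 42.7 and 44.8 in LR-V at E-L 38. Its interaction was small but even across replicates, 0.65 ± 0.12 (adjusted p = 0.001). Among 19 other tested genes of sulfate activation, reduction and cysteine synthesis, sulfite reductase included, 2 were called above 0 and none below, 4 had an unadjusted p under 0.05, and the median was 0.15. These genes, the first reductase apart, were chosen after values were seen.

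DELLA proteins restrain growth until gibberellin has them degraded. The DELLA gene VIT_206s0009g02390, also chosen after its values were seen, had 11.2, 14.8 and 14.4 FPKM in C and 8.41, 5.56 and 9.55 in LR-V at E-L 36, then 10.7, 8.16 and 8.27 in C and 12.9, 15.1 and 14.3 in LR-V at E-L 38. Its interaction was 1.32 ± 0.20 (adjusted p = 0.000147). VIT_207s0005g02710, an uncharacterized gene, had 66.6, 64.6 and 74.8 FPKM in C and 35.5, 36.7 and 44.7 in LR-V at E-L 36, then 13.6, 12.3 and 23.9 in C and 44.1, 58.8 and 60.5 in LR-V at E-L 38. In C it fell steeply with ripening and in LR-V it did not, and the interaction was 2.51 (adjusted p = 3.49e-06). A casein kinase II beta subunit, VIT_202s0012g00090, had means of 64.6 and 40 FPKM at E-L 36 and 19.5 and 36.1 at E-L 38, in C and LR-V, and an interaction of 1.54 (adjusted p = 0.000116). Cyclin D1-1, VIT_201s0026g00710, which drives entry into the cell cycle, was low throughout, with at most 2.89 FPKM in these groups, and had an interaction of 1.77 (adjusted p = 0.00156).

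Sterol synthesis held both orders, in a pair of genes chosen after their values were seen. Sterol 14-demethylase VIT_201s0150g00210, an early step, had 30.7, 25.2 and 24.9 FPKM in C and 45.0, 44.0 and 35.4 in LR-V at E-L 36, then 10.4, 8.97 and 7.84 in C and 4.33, 3.54 and 4.61 in LR-V at E-L 38. Delta24-sterol reductase VIT_201s0010g01200, a later step, had 126, 173 and 171 FPKM in C and 96.0, 102 and 109 in LR-V at E-L 36, then 56.7, 60.7 and 74.2 in C and 103, 145 and 115 in LR-V at E-L 38. The interactions were -1.57 ± 0.21 and 1.505 ± 0.207, with adjusted p = 3.84e-05 and 6.42e-05.

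Cellulose synthases and the related synthase-like proteins build the polysaccharides of the cell wall, and 11 of 36 tested genes (30.6%) were called above 0 and 0 below, where 18 above and 0 below had an unadjusted p under 0.05. The list median was 0.55 beside 0 over all genes. At E-L 36 limma called 0 of them, 3 had an unadjusted p under 0.05 and the median difference was 0.03. At E-L 38, 16 were above C and the median was 0.60. Summed FPKM of the list was 602 to 624 in C and 530 to 651 in LR-V at E-L 36, which overlap. At E-L 38 it was 306 to 340 in C and 461 to 542 in LR-V, which do not. The list fell with ripening in C and fell by less in LR-V. With the 3 seed-rich libraries left out, 3 calls were left and the median was 0.31. LR-V B at E-L 38, low in seed transcripts, had a sum of 461, above all 3 C libraries.

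Light receptors and their signalling genes had 10 calls above 0 and 1 below among 63 tested, with a median of 0.16. These are 15.9% and 1.59%, beside 4.04% and 4.31% of all genes. At E-L 36, 4 of the 63 were above C and 0 below, and 16 had an unadjusted p under 0.05. At E-L 38, 20 were above and 1 below. Over all genes, 4.08% and 10.1% were above C at the 2 stages. Phytochrome A1 (VIT_214s0060g00100), a far-red receptor, had 16.2, 16.5 and 18.2 FPKM in C and 13.2, 13.8 and 15.6 in LR-V at E-L 36, then 13.4, 12.8 and 15.5 in C and 19.6, 22.1 and 20.9 in LR-V at E-L 38. Its libraries were apart at both stages, but only E-L 38 was called, and the interaction was 0.80 ± 0.15 (adjusted p = 0.00167). The blue light receptor cryptochrome 1 (VIT_218s0001g05680) had 12.1 to 15.1 FPKM in C and 22.3 to 34.8 in LR-V at E-L 38, and overlapped at E-L 36. The list had 4 calls above 0 without the 3 seed-rich libraries, with a median of 0.02.

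Auxin transport and response genes had 10 calls above 0 and 3 below among 84 tested, with a median of 0.29. These are 11.9% and 3.57%, beside 4.04% and 4.31% of all genes. At E-L 36, 2 were above C and 3 below, and 34 had an unadjusted p under 0.05. At E-L 38, 24 were above and 3 below. Over all genes, 4.08% and 10.1% were above C at these stages. An auxin efflux carrier of the PIN type, VIT_217s0000g02420, had 2.95, 2.25 and 4.57 FPKM in C and 10.2, 10.1 and 13.3 in LR-V at E-L 38, overlapped at E-L 36, and had an interaction of 2.22 (adjusted p = 0.000909). Without the 3 libraries 2 auxin calls were left. SWEET10 (VIT_217s0000g00830), a sugar exporter, ended ripening at 9.93, 7.82 and 30.9 FPKM in C and 40.5, 80.1 and 73.1 in LR-V, from 240.6 to 374.5 in both groups at E-L 36. Its interaction of 2.32 (adjusted p = 0.00293) was lost when the 4 groups were fitted alone.

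Photosystem and light-harvesting genes capture light energy. Of 76 tested, 18 were above C at the first stage and 40 at the ripe stage, beside 4.08% and 10.1% of all genes. For the interaction 9 were called above 0 (11.8%) and 0 below, beside 4.04% and 4.31% of all genes. An unadjusted p under 0.05 was found for 21 above and 6 below. Of these 9 genes, 8 were above C in the estimates of both stages, and VIT_219s0014g03660 went from -0.07 to 0.55. Oxygen-evolving enhancer protein 1 (VIT_200s0207g00210), of photosystem II, had 28.9 to 34.6 FPKM in C and 40.4 to 52.5 in LR-V at E-L 36, then 3.89 to 5.69 in C and 14.1 to 34.9 in LR-V at E-L 38. The level of this gene fell with ripening in both kinds of berries, and by less in LR-V. Without the 3 seed-rich libraries, limma called 0 genes of the list and the median fell from 0.47 to 0.21. A fit with the seed list as a covariate gave 9 calls above 0 and 0 below for this list, with a median of 0.46. In that fit cellulose synthase had 11 above and 0 below, light signalling 10 and 1, and auxin 11 and 3. Their medians were 0.54, 0.18 and 0.29. The part of seed tissue in these list results was not tested beyond these values.

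**Figure D3:**
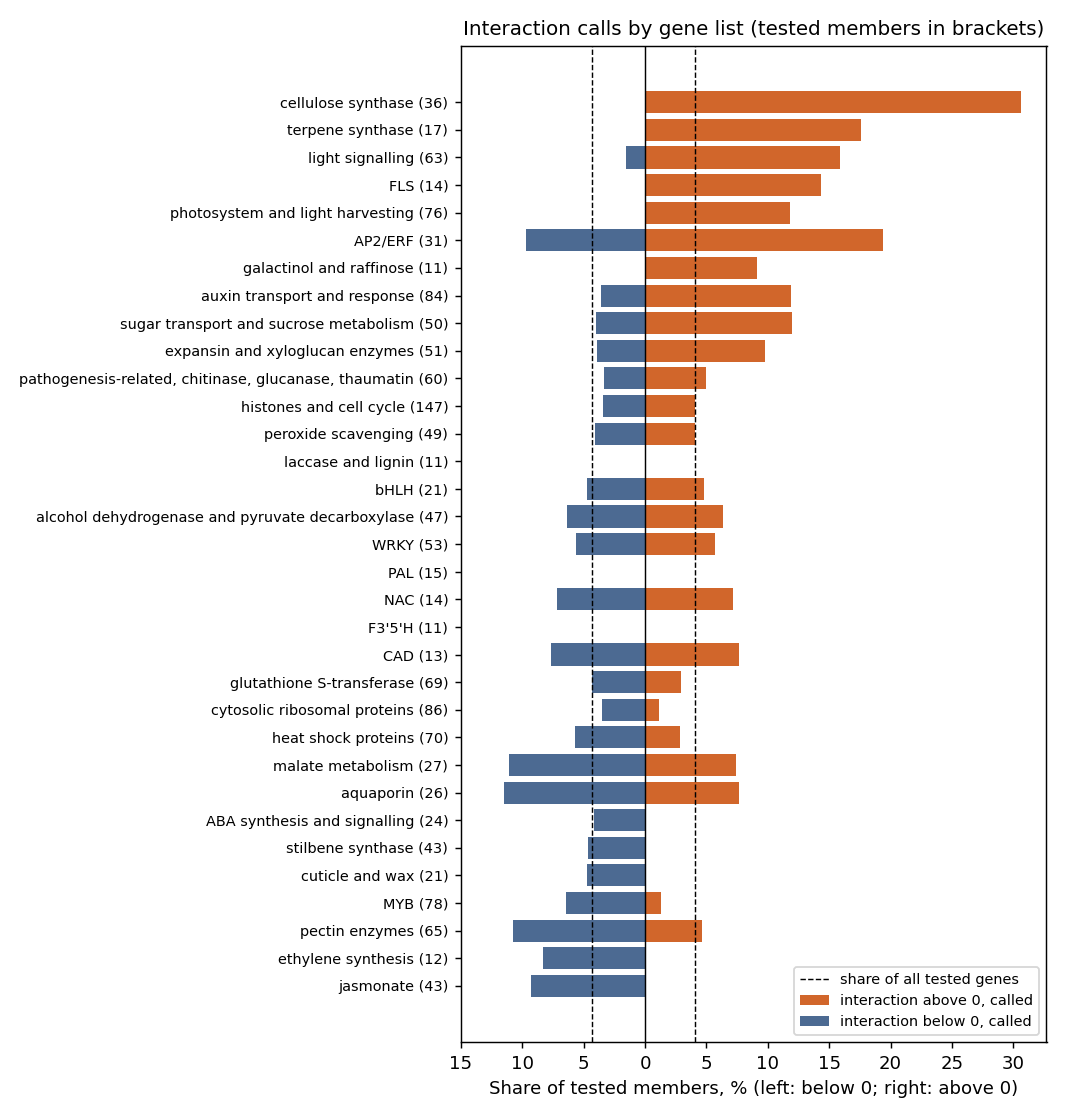
Bars give the share of tested members of each gene list, in percent, that were called for the interaction, above 0 to the right in orange and below 0 to the left in blue, with the number tested in brackets. Dashed lines mark 4.04% and 4.31%, the shares over all tested genes, and cellulose synthase has the longest bar at 30.6%.

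Phenolic synthesis was the topic of the study. Over 15 enzyme families, from phenylalanine ammonia-lyase to anthocyanidin reductase and cinnamyl alcohol dehydrogenase, 5 of 93 tested genes were called above 0 and 4 below, together 9.68% beside 8.35% of all tested genes. Their median was -0.11, and 1 of them had opposite calls. That gene, VIT_208s0105g00380, bears the KEGG term of flavonol synthase, but its closest protein is named SRG1-like, so its enzyme activity is not settled. It was -0.71 at E-L 36 and 0.59 at E-L 38. Its interaction of 1.30 (adjusted p = 0.00162) was lost under 0 of 21 alternatives. Opposite calls were made for 0 flavonol synthases when the 4 groups were fitted alone. In 9 of the families, chalcone synthase among them, limma called 0 of 48 genes, and 4 had an unadjusted p under 0.05. The flavonol synthase VviFLS4 (VIT_218s0001g03470) was above C at both stages, by 1.28 and 2.62 on the log2 scale. It had 1.26 to 2.01 FPKM in C and 4.74 to 6.24 in LR-V at E-L 36. In ripe berries it had 1.12 to 2.46 in C and 10.9 to 18.6 in LR-V, and its interaction of 1.34 (adjusted p = 0.0401) was lost under 13 of 21 alternatives. Flavanone 3-hydroxylase VIT_204s0023g03370, which makes dihydroflavonols, overlapped at E-L 36 and had 162, 143 and 128 FPKM in C and 59.9, 69.2 and 45.7 in LR-V at E-L 38. Its interaction was -1.11 (adjusted p = 0.0201) and was lost under 6 alternatives. Of 43 tested stilbene synthases, which make resveratrol and are near-identical copies, 2 were called below 0 and 0 above, where 4 below and 5 above had an unadjusted p under 0.05, and their median was 0.23.

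Cytokinin and ethylene genes named by the study gave interactions without a reversal. A cytokinin receptor, VIT_213s0019g01180, had 8.78 to 10.2 FPKM in C and 24.3 to 33.0 in LR-V at E-L 36. In ripe berries it had 7.92 to 8.82 in C and 9.41 to 12 in LR-V, without a call there, and an interaction of -1.20 (adjusted p = 0.000397). Histidine phosphotransfer protein 4 (VIT_211s0016g03170), which passes the cytokinin signal on, was 1.10 above C at E-L 36 and 0.09 above it at E-L 38, where the groups overlapped. An ACC oxidase, VIT_211s0016g02380, the last enzyme of ethylene synthesis, had 10.4, 15.0 and 9.27 FPKM in C and 1.2, 1.88 and 1.18 in LR-V at E-L 38, after overlapping at E-L 36. Its interaction of -2.44 (adjusted p = 0.044) was lost under 13 alternatives.

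The run of EREBP-like ethylene response factors under VIT_216s0013g gave the highest interaction values. Of 15 tested, 11 were called above 0 and 1 below, with a median of 2.41. VIT_216s0013g01030, with the highest value, had 0.50, 2.57 and 6.93 FPKM in C at E-L 36 and was listed at 0 in all 3 LR-V libraries, then had 0.90, 0 and 0 in C and 7.59, 2.31 and 11.6 in LR-V at E-L 38. Summed over the run, LR-V at E-L 38 had 195.9 in A, 83.3 in B and 293.3 in C, and the C libraries had 98.3 to 102. In this sum B, the library low in seed transcripts, was below the controls, and A and C were above them. The sum mixes members, as 11 were called above C and 2 below at E-L 38. In VIT_216s0013g01030, B had 2.31 FPKM against at most 0.90 in C. With the seed list as a covariate, 11 interactions were called above 0 and 1 below. The part of seed tissue in this run was not tested further. At E-L 36 limma called 0 of the 15 (5 with an unadjusted p under 0.05), so none reversed by its calls, and with the 3 seed-rich libraries left out 2 were called above 0, and VIT_216s0013g01030 was not among them. These genes also lie together and may share reads.

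**Figure D4:**
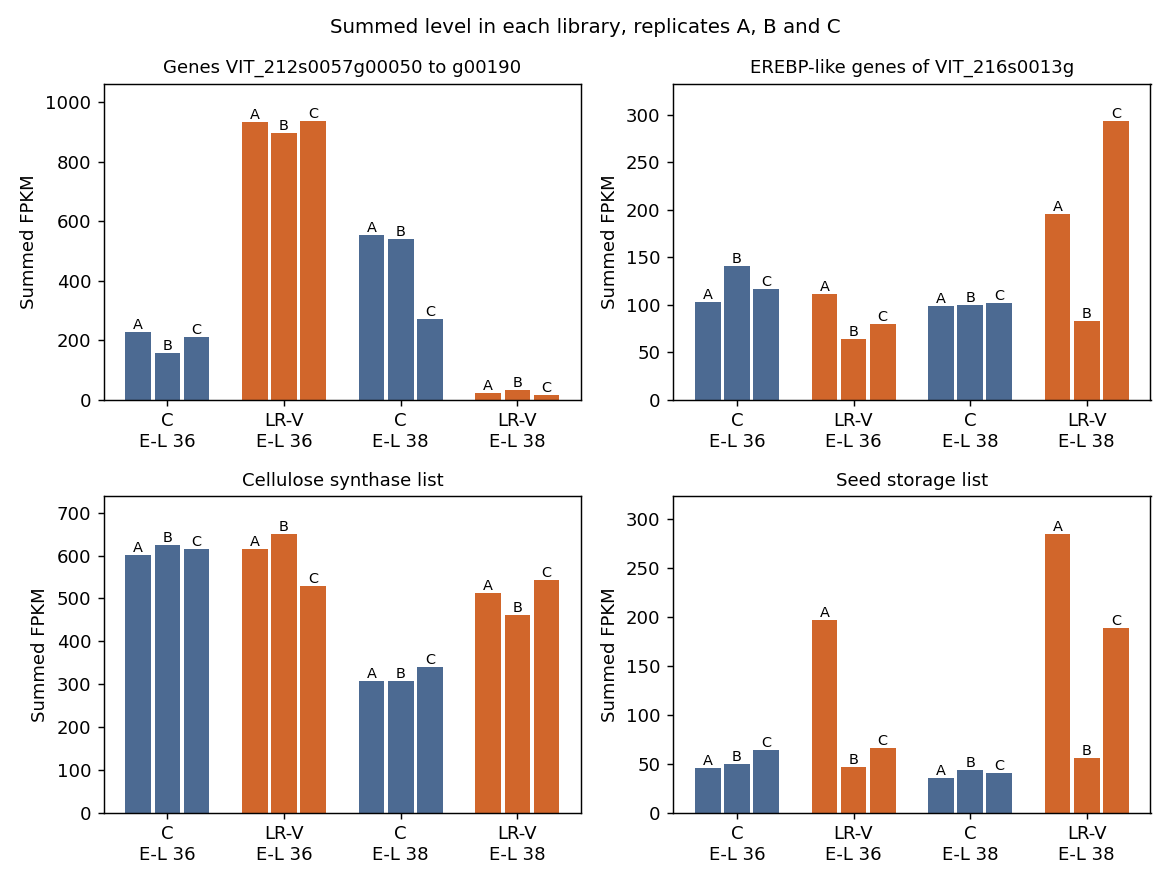
Bars give FPKM summed over 4 gene sets in each of 12 libraries, A to C from left to right, in C (blue) and LR-V (orange) at E-L 36 and E-L 38. The run VIT_212s0057g00050 to g00190, the cellulose synthase list and the seed storage list separate all 3 LR-V from all 3 C libraries at E-L 38. At that stage the EREBP-like run and the seed storage list are highest in LR-V A and C and lower in B.

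Leaf moving at véraison gave a second view of the same change, with the C libraries shared, so only values are set side by side. Its interaction was called for 306 genes above 0 (1.55%) and 306 below (1.55%). In the 118 genes the median LM-V minus C difference was 0.43 at the first stage, with 8 genes called above C (0.0607% of all genes were), beside 0.80 in LR-V. At the second it was -0.61, with 78 called below (4.9% of all genes were), beside -0.82. Since LR-V values chose these genes, the larger size in LR-V is in part fixed by the choice. In the 38 genes it was -0.23 at E-L 36 and 0.38 at E-L 38, beside -0.52 and 0.56. Summed FPKM of the run VIT_212s0057g00050 to VIT_212s0057g00190 in LM-V was 402 to 803 at the first stage and 21.4 to 43.9 at the second, beside the LR-V values of 896 to 937 and 16.8 to 32.7. VIT_208s0007g04180 had an interaction of -5.97 in LM-V and -6.98 in LR-V, adenylyl-sulfate reductase VIT_210s0116g01650 of 2.06 and 2.74, and TIFY 10A-like VIT_209s0002g00890 of -0.68 (adjusted p = 0.387) and -2.03.

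The LR-V interaction minus the LM-V interaction tests the difference of the treatments and needs no C library. It was called for 81 genes (0.41%), 50 above 0 and 31 below. Of the 118 genes 9 were among them and of the 38 genes 4. The receptor-like kinase VIT_207s0129g00930 differed by -1.21 (adjusted p = 0.0127), with an interaction of -2.13 in LM-V and -3.34 in LR-V. Cyclin D1-1 (VIT_201s0026g00710) differed by 1.59 (adjusted p = 0.0351) and had 0.18 in LM-V. TIFY 10A-like VIT_209s0002g00890 did not pass in that test, and neither did NCED or adenylyl-sulfate reductase. Zinc transporter 1 (VIT_219s0085g00740) had 12.5 and 19.2 FPKM in LR-V A and C at E-L 38, beside 4.75 in B. It differed by 3.82 in the main fit and by 3.09 without the 3 seed-rich libraries. Without the 3 seed-rich libraries 1 gene was called for that difference in all.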

How the data were processed

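RNA of deseeded berries was sequenced as single reads on an Illumina instrument. The authors aligned the reads to the grapevine genome V2 (Bowtie2 2.2.5 in the submitters' processing notes) and deposited 1 table of FPKM per gene and library, to 2 decimals, with KEGG and closest-protein annotation. No source used here names the program that made the FPKM values. The table has no read counts, so depth is not known and no count test was run. FPKM is relative within a library, so a large change of a few abundant genes shifts the others.

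Genes that reached FPKM 1 in 3 or more libraries were modelled on log2(FPKM + 1) with limma 3.58.1 (trend and robust priors, statmod 1.5.0, R 4.3.3), in 1 model of 9 group means over 27 libraries. P-values were adjusted by Benjamini-Hochberg over 19761 genes, with a threshold of 0.05. Differences on this scale understate the changes of low genes. The test was checked on simulated data. The comparisons, gene lists and genes were chosen with earlier results of these data known. Genes were named if they were among the 10 highest or 10 lowest interactions that passed, had a mean FPKM of 5 in a group and did not overlap at a stage, among 8 of each order with the largest smaller difference, among up to 3 calls of each of 47 lists, or named by the study and called. Others are marked as chosen after their values were seen. Lists are described by counts and medians, without a list test. Replicates are separate lots of vines by the labels. Samples of 1 letter did not all deviate together. Their correlations between C and LR-V were -0.07, 0.19 and 0.10 at E-L 36 and 0.08, -0.13 and 0.01 at E-L 38. Between the stages they were 0.30, 0.33 and -0.14 in LR-V and 0.01, -0.07 and -0.07 in C, so letters were not used as pairs. The RefSeq gene table was of another assembly and served for names only (6982 genes matched). Sequences and gene coordinates were not used here.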

Additional observations from a re-analysis of the deposited data

Results flagged for a closer look

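The effect of leaf removal differed between stages for 1650 genes by the interaction test, and 156 of them had calls of opposite sign. The effect of leaf moving differed between stages for 612 genes, with the same C libraries. The change of the effect differed between LR-V and LM-V for 81 genes.

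Among the genes named by rule, 10 passed that last test, all higher in LR-V. The difference was 0.79 for the MYB gene VIT_219s0090g00590, 1.59 for cyclin D1-1 (VIT_201s0026g00710), 1.95 for a nerolidol synthase gene (VIT_200s0271g00010) and 2.01 for a ribosomal protein L7 gene (VIT_209s0054g00140). It was 2.26 for a xyloglucan endotransglucosylase gene (VIT_211s0052g01250), 2.76 for an auxin-induced 5NG4-like gene (VIT_218s0001g13360) and 2.96 for VIT_218s0122g00290, which has no description. It was 3.25 and 3.79 for the EREBP-like genes VIT_216s0013g00990 and VIT_216s0013g00950, and 3.82 for zinc transporter 1 (VIT_219s0085g00740). Of these 10, limma called 0 when the 3 LR-V libraries rich in seed transcripts were left out, with differences of 0.89 to 3.09 and adjusted p of 0.136 to 0.52.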

How the results depend on the processing

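All 112 genes named by rule kept their direction under each of up to 21 alternatives, 52 kept the call under all, and 236 of 2339 values lost it. The signs of the 156 opposite genes were kept in all tested alternatives. Both sets were chosen by their calls in these same libraries. At both stages, LR-V and C did not overlap in 113 of the 118 genes and 37 of the 38. Kept signs were thus largely fixed by the choice and add no support. With only the compared groups in the fit, calls fell to 504 at E-L 36, 1973 at E-L 38, 74 opposite and 1 for LR-V against LM-V. Without the trend and robust priors the last count was 41. With the seed list as a covariate, 1722 genes were called for the interaction, 709 at E-L 36 and 2601 at E-L 38. The same fit gave 111 opposite, 619 for LM-V and 103 for LR-V against LM-V. Leaving out 3 LR-V libraries rich in seed transcripts, chosen after seeing the data, gave 602 for the interaction (228 above 0), 640 at E-L 36, 600 at E-L 38, 65 opposite and 1 for LR-V against LM-V. These fits also hold fewer samples. Leaving out 1 library at a time gave 1085 (without C A at E-L 38) to 1754 interaction calls, 494 to 1203 at E-L 36, 1916 to 3884 at E-L 38, 88 to 159 opposite, 406 to 631 for LM-V and 13 to 272 for LR-V against LM-V. At E-L 36 the count was 494 without C C or LR-V B, 526 without C B and 557 without LR-V A. At E-L 38 it was 1916 without LR-V C, 2249 without C A and 2287 without C B, and opposite calls were 88, 90 and 93 without C B, C C and LR-V B at E-L 36. The LM-V count was 406 without C B at E-L 38. LR-V against LM-V gave 272 without LR-V B at E-L 38, the replicate low in seed transcripts. It gave 38, 21 and 44 without LR-V A, B and C and 33 and 13 without LM-V A and C at E-L 36, and 23 without LR-V C and 23 and 44 without LM-V A and C at E-L 38. A replicate block, with letters that do not pair the samples, gave 1552 interaction calls, 140 opposite, 995 at E-L 36, 3356 at E-L 38, 544 for LM-V and 74 for LR-V against LM-V. Pseudocount, filter and median-of-ratios scaling moved no total of calls by over 1.5 times, but under that scaling genes below C at E-L 36 went from 288 to 444. Depth is not known, so genes near 1 FPKM are the least certain.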
